A study of Mus musculus with 12 samples.

Results

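The genes described here encode enzymes that attach glucuronic acid or other sugars (the Ugt2 and Ugt3 families) or sulfate (Sult), hydrolyse esters (the carboxylesterases, Ces), or oxidise heteroatoms (the flavin-containing monooxygenases, Fmo) and aldehydes (the aldehyde dehydrogenases, Aldh). They were taken from the count table by a pattern of gene symbols. The pattern uses no measured values but was chosen with earlier results of these data known. It matched 79 of 50499 genes: 20 Aldh, 19 Ces, 21 Sult, 10 Ugt2, 2 Ugt3 and 7 Fmo genes. Of these, 47 had enough counts to be tested, 20 had some counts but fell below the filter, and 12 were listed at 0 in all libraries. Aldh2 and the Ugt1 genes did not match the symbol pattern, so they are no members.

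RNA was sequenced from livers of male wild-type C57BL/6 mice, in 12 libraries that form 4 groups of 3. From 6 weeks of age the mice ate chow and drank plain water, or ate a Western diet and drank sugar water, the study's model of steatohepatitis. After 12 weeks every mouse received AAV8 particles through the tail vein, and livers were sampled after another 12 weeks. The vector carried the TBG promoter, which is active in hepatocytes, with no insert (null) or with a sequence against Aatf (siAATF). The groups are called chow null (CDC), chow siAATF (CDsiAATF), Western null (WDC) and Western siAATF (WDsiAATF). All groups therefore share the virus and its promoter. Replicates carry numbers, but nothing in the labels ties a number to a separate mouse, so p-values measure the spread between these libraries only.

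In the liver these enzymes make fat-soluble molecules easier to excrete. Oxidation by Fmo or Aldh enzymes and ester cleavage by Ces enzymes expose or create polar groups, and Ugt and Sult enzymes then couple sugars or sulfate to drugs, steroids and bile acids. Many of them also handle the body's own lipids: several carboxylesterases cleave stored triacylglycerol, and the Aldh1a enzymes make retinoic acid from retinaldehyde. In mice, several genes of these families differ between the sexes under the pattern of growth hormone secretion, and some respond to receptors for bile acids, xenobiotics and fatty acids.

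Levels below are CPM, the counts scaled to a common library size (TMM), and fold changes are log2 ± standard error by the quasi-likelihood method of edgeR, with p-values adjusted (Benjamini-Hochberg) over all 11934 genes tested. A gene was said to rise or fall where the adjusted p was under 0.05. Libraries held 1646853 to 13469819 counts, of which a copy of the 18S ribosomal RNA gene took between 0.871% and 50.8%. A count of 3 equalled 0.185 to 1.69 CPM, depending on the library. Aatf itself, the gene targeted by the vector, had no lower mean in the libraries labelled siAATF, with 34.8 ± 8.86 CPM against 31.6 ± 5.13 on chow and 27.5 ± 0.599 against 26.3 ± 4.60 on the Western diet (SD, n = 3 each), log2 differences of 0.11 ± 0.24 and 0.06 ± 0.25 that did not pass. Directions for the vector therefore rest on the labels. Hepatocyte markers were abundant in every library (summed level 50500 to 110000 CPM over 9 genes).

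The library Western siAATF replicate 3 stood apart for these enzymes. Among the 38 tested members with a mean of at least 10 CPM, 9 were more than 2-fold above both other libraries of its group and 1 was more than 2-fold below both. In no other library did more than 2 of the 38 lie so far from both neighbours in either direction, a count made after the values were seen. The 9 were Aldh3a2, Aldh4a1, Aldh5a1, Ces1d, Ces1e, Ces1f, Ces1g, Ces2a and Ces2c, and the 1 below was Ces1b. It held 1989409 counts, the lowest 18S share (0.871%) and the lowest summed hepatocyte level of its group (50500 CPM). Whether these properties bear on the enzymes was not tested. Results that rest on this group are given with and without it. The library was singled out by the values of these members, so calls they gain without it add no support, also beside the share of all genes.

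Several members have near-identical copies, so their sequences are shown first where a copy is close to a gene whose level changed. The Ces3a and Ces3b genes lie next to each other on chromosome 8, and their coding sequences, both 1713 bases, were 95.3% identical with a longest shared run of 194 bases. Over 50-base words of the transcript, 26.1% of those in Ces3b also occurred in Ces3a. The 60-base stretch in which the pair differed most, coding bases 758 to 817, is printed below with the 13 differing bases in capitals (GENCODE vM21 transcripts).
Ces3a: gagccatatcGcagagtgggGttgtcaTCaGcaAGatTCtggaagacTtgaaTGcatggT
Ces3b: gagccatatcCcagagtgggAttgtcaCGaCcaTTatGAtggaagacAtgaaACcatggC

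Ugt2b5 and Ugt2b38, on chromosome 5, were closer still: 97% identical over 1590 coding bases, with a shared run of 443 bases. The stretch with most differences, bases 1467 to 1526, has 9 of them.
Ugt2b5: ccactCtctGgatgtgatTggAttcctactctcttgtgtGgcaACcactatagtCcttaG
Ugt2b38: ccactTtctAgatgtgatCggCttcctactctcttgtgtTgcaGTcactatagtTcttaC

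Aldh1a1 and Aldh1a7, neighbours on chromosome 19, were 91.6% identical over 1503 bases, with 16 differences in bases 317 to 376. The pair shared 6.54% of the Aldh1a1 words and 7.49% of the Aldh1a7 words. Reads from the identical stretches may have been split between the copies or dropped in counting, so levels of Ces3b and above all of Ugt2b38 are uncertain.
Aldh1a1: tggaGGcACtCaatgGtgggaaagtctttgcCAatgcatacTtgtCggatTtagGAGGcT
Aldh1a7: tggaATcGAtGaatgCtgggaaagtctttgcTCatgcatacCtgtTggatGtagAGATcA

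The first comparison, Western null against chow null, asks what the diet changed in mice given the null vector. Of the 47 tested members, 5 rose (Fmo1, Fmo2, Fmo5, Aldh1a7 and Aldh1b1) and 5 fell (Ugt2b1, Ugt2b38, Sult2a8, Ces3b and Ces4a). Ugt2b38 and Ces4a passed the count filter through the chow groups, where they are high, a limit on their falls here and below. With no filter on counts both were also lower (edgeR adjusted p = 9.62e-06 and 5.79e-06). Over all genes tested, 6.44% rose and 6.77% fell, against 10.6% of these members in each direction. All that rose were oxidising enzymes and all that fell were conjugating enzymes or carboxylesterases, a split that covers only the genes that passed. Passed or not, 4 of 15 tested Aldh genes had negative estimates. Positive estimates occurred in 4 of 13 Ces, 2 of 6 Sult, 1 of 7 Ugt2 and 2 of 2 Ugt3 genes. The median log2 fold change was 0.01 over the 47 members and -0.03 over all genes. Leaving out Western siAATF replicate 3, which belongs to neither group, changed the estimate of the spread and the set of genes tested (12379 genes, 48 of them members). 15 of the 48 members then passed, where 18.2% of all genes did.

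**Figure D1:**
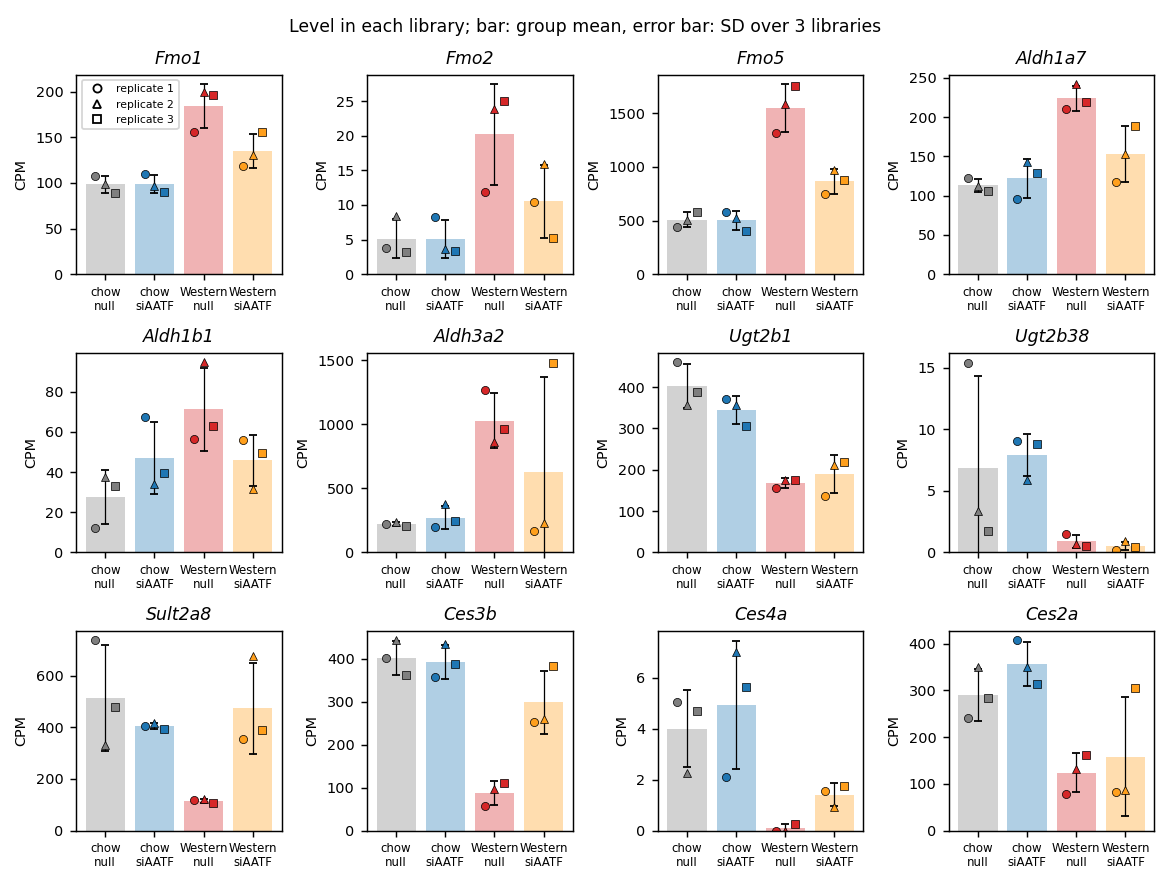
CPM of 12 enzyme genes in each of the 12 libraries (circles, triangles and squares are replicates 1, 2 and 3), with bars at the group mean and error bars of 1 SD. The 10 genes that passed in Western null against chow null are shown with Aldh3a2 and Ces2a, which did not. Sult2a8 stands between 105 and 121 CPM in Western null and at 330 CPM or more in every other library.

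Among the monooxygenases, Fmo5 (chr3:97517248-97562603, plus strand, GRCm39) was the most abundant per length of transcript, at 165 CPM per kb over all libraries. It encodes an enzyme that inserts oxygen beside ketones more than at nitrogen or sulfur. Its libraries stood at 441, 509 and 576 CPM (chow null), 577, 527 and 406 (chow siAATF), 1320, 1590 and 1750 (Western null) and 746, 973 and 876 (Western siAATF). Every Western null library lay above every library of the other groups, and both chow groups covered the same range. Fmo5 rose by 1.61 ± 0.24 on the Western diet (edgeR quasi-likelihood, adjusted p = 0.000597).

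Fmo1 (chr1:162657130-162694179, minus strand), a drug-oxidising form, stood at 107, 98.8 and 88.8 CPM (chow null), 110, 96.4 and 90.3 (chow siAATF), 156, 200 and 196 (Western null) and 119, 131 and 156 (Western siAATF). Western null was above both chow groups in every library and touched Western siAATF at 156 CPM. Fmo1 rose by 0.91 ± 0.21 (edgeR adjusted p = 0.0105). Fmo2 (chr1:162701886-162726327, minus strand), known best from lung, was low, at 3.77, 8.47 and 3.22 CPM (chow null), 8.2, 3.69 and 3.34 (chow siAATF), 11.8, 23.9 and 25 (Western null) and 10.4, 15.9 and 5.28 (Western siAATF). It rose by 2.19 ± 0.48 (edgeR adjusted p = 0.00715), with all Western null libraries above all chow libraries. Without chow null replicate 3 neither gene passed (0.83, adjusted p = 0.0658, for Fmo1 and 1.90, adjusted p = 0.0627, for Fmo2), and Fmo1 did not pass without Western null replicate 2 (0.85, adjusted p = 0.054).

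Fmo4, a form with few known substrates, stood between 2.35 and 6.78 CPM in chow null, between 2.30 and 7.14 in chow siAATF, between 2.73 and 7.41 in Western null and between 2.65 and 6.81 in Western siAATF. The 4 groups covered almost the same range (0.32 ± 0.54 for the diet). Fmo6 had 1 count in all and Fmo9 none. The summed level of the Fmo genes was 556 to 670 CPM in chow null and 1500 to 1980 in Western null, with Fmo5 the largest part and Fmo1 the next.

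Among the aldehyde dehydrogenases, 2 of 15 tested members rose and none fell. Aldh1a7 (chr19:20670317-20704920, minus strand), a close relative of the retinaldehyde-oxidising Aldh1a1, stood at 122, 112 and 106 CPM (chow null), 95.2, 143 and 129 (chow siAATF), 210, 242 and 219 (Western null) and 117, 153 and 189 (Western siAATF). Western null lay above all other libraries. It rose by 0.98 ± 0.23 (edgeR adjusted p = 0.0118). Per length of transcript, Aldh1a1 was the most abundant Aldh gene (425 CPM per kb), but per kb of gene span it had 6.65 CPM against 19.4 for Aldh1l1. Its mean level was 823 ± 121 CPM in chow null, 808 ± 227 in chow siAATF, 1320 ± 140 in Western null and 1060 ± 174 in Western siAATF (SD, n = 3 each). Its change of 0.68 ± 0.26 had the same sign as that of Aldh1a7 and did not pass (adjusted p = 0.0952). Other genes overlap 42.8% of the span of Aldh1a1, where its reads may have been dropped or shared.

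Aldh1b1 (chr4:45799022-45804608, plus strand), a mitochondrial enzyme for acetaldehyde and retinaldehyde, stood at 12.1, 37.3 and 33.1 CPM (chow null), 67.2, 34.1 and 39.5 (chow siAATF), 56.3, 94.7 and 62.7 (Western null) and 56.2, 31.5 and 49.7 (Western siAATF). Western null lay above chow null but overlapped chow siAATF, whose replicate 1 was second highest of all. It rose by 1.41 ± 0.38 (edgeR adjusted p = 0.0245). It did not pass without chow null replicate 1 (1.02, adjusted p = 0.084), chow null replicate 3 (1.60, adjusted p = 0.0575) or Western null replicate 2 (1.16, adjusted p = 0.114). Aldh1a7 did not pass without chow null replicate 3 (0.92, edgeR adjusted p = 0.0658) or without Western null replicate 2 (0.93, adjusted p = 0.0551). Leaving out the 4 libraries that had over 25% 18S counts keeps only replicate 3 in chow null. The estimate for Aldh1a7 was then 1.11.

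Aldh3a2 (chr11:61114243-61158354, minus strand) encodes the fatty aldehyde dehydrogenase of the endoplasmic reticulum and is a known target of the fatty acid receptor PPAR-alpha. Its libraries stood at 220, 235 and 202 CPM (chow null), 197, 374 and 243 (chow siAATF), 1270, 862 and 967 (Western null) and 168, 226 and 1480 (Western siAATF). All Western null libraries lay above all chow libraries, while Western siAATF split into 2 libraries at the chow level and replicate 3, the highest of all. The difference between Western null and chow null, 2.24 ± 0.68, did not pass (edgeR adjusted p = 0.0515). It passed without Western siAATF replicate 3 (2.24 ± 0.26, adjusted p = 1.22e-05), without Western siAATF replicate 1 (2.23, adjusted p = 0.0113) or 2 (2.23, adjusted p = 0.0348), and in a fit of the 2 groups alone (adjusted p = 8.5e-06).

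Aldh1l1, the folate enzyme that oxidises 10-formyltetrahydrofolate, had 627, 1610 and 1110 CPM (chow null), 993, 998 and 1360 (chow siAATF), 511, 728 and 587 (Western null) and 912, 698 and 1130 (Western siAATF). Western null overlapped chow null through the low chow null replicate 1 (-0.87 ± 0.32, adjusted p = 0.0777), and the gene passed without that library (-1.16, adjusted p = 0.0235) or without Western siAATF replicate 3 (-0.87, adjusted p = 0.0361). The other 10 tested Aldh genes had diet differences between -0.45 and 1.09, none of which passed. Among them are Aldh4a1, Aldh5a1, Aldh6a1 and Aldh7a1, which work in the breakdown of proline, GABA, valine and lysine in mitochondria. Aldh1a2, the main retinoic acid enzyme of embryonic tissue and of mesenchymal cells, had 6, 0, 4 and 5 counts in the 4 groups and was below the filter.

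Of the 9 tested sugar-conjugating genes, 2 fell and 0 rose. Ugt2b1 (chr5:87064498-87074362, minus strand), a glucuronosyltransferase of the endoplasmic reticulum, stood at 460, 357 and 388 CPM (chow null), 370, 356 and 305 (chow siAATF), 155, 175 and 175 (Western null) and 136, 212 and 219 (Western siAATF). The Western groups lay below both chow groups in every library. It fell by 1.25 ± 0.24 on the log2 scale (edgeR adjusted p = 0.00281), and shares no 50-base word with another gene. Ugt2b38 (chr5:87557798-87572062, minus strand) stood at 15.4, 3.39 and 1.74 CPM (chow null), 9, 5.91 and 8.78 (chow siAATF), 1.48, 0.681 and 0.539 (Western null) and 0.221, 0.908 and 0.44 (Western siAATF). All Western libraries lay below all chow libraries, and chow null replicate 1 was far above its group. It fell by 3.24 ± 0.79 (edgeR adjusted p = 0.0137). It did not pass without chow null replicate 1 (-1.57, adjusted p = 0.183), Western null replicate 2 (-3.19, adjusted p = 0.0577) or 3 (-2.79, adjusted p = 0.0881), nor with limma-voom (-2.59, adjusted p = 0.106). Without the libraries over 25% 18S, which keeps only replicate 3 in chow null, it had -1.16.

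Ugt2b5, its near copy and the most abundant Ugt2 gene per length of transcript (295 CPM per kb), stood at 941, 491 and 496 CPM (chow null), 885, 672 and 562 (chow siAATF), 416, 417 and 497 (Western null) and 295, 498 and 413 (Western siAATF). Western null reached the lower chow null libraries, and the difference did not pass (-0.54 ± 0.30, adjusted p = 0.245). Ugt2a3, a bile acid glucuronidating form, stood at 198, 101 and 153 CPM (chow null), 177, 139 and 123 (chow siAATF), 86.4, 112 and 106 (Western null) and 101, 177 and 99.5 (Western siAATF), and Western null overlapped chow null (-0.57 ± 0.29, adjusted p = 0.202). Ugt2b34, Ugt2b35 and Ugt2b36 had differences between -0.06 and 0.28.

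The pair of Ugt3 genes encode transferases that use N-acetylglucosamine (Ugt3a1) or glucose and xylose (Ugt3a2) in place of glucuronic acid. Ugt3a1 stood at 45.1, 25.4 and 38.5 CPM (chow null), 37, 56.3 and 35.7 (chow siAATF), 52.3, 57.9 and 41.1 (Western null) and 31.8, 62.9 and 61.2 (Western siAATF). Ugt3a2 stood at 277, 167 and 222 CPM (chow null), 191, 238 and 211 (chow siAATF), 243, 259 and 235 (Western null) and 244, 375 and 220 (Western siAATF). All groups overlapped in both genes, and the diet differences of 0.44 ± 0.30 and 0.14 ± 0.25 did not pass.

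Among the sulfotransferases, Sult2a8 (chr7:14144611-14180705, minus strand) was the most abundant per length of transcript (176 CPM per kb). It encodes a liver enzyme that sulfates bile acids. Its libraries stood at 737, 330 and 478 CPM (chow null), 404, 417 and 394 (chow siAATF), 119, 121 and 105 (Western null) and 355, 676 and 390 (Western siAATF). Western null was the lowest group with no overlap, and the other 3 groups overlapped each other. It fell by 2.16 ± 0.31 (edgeR adjusted p = 0.000387) and shares no 50-base word with another gene.

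The other 5 tested sulfotransferases did not pass. Sult1a1, which sulfates phenols, had 113 ± 25.6 CPM in chow null and 109 ± 5.73 in Western null (-0.05 ± 0.34). Sult1d1, which acts on catecholamines, stood at 42.5, 50.8 and 60.5 CPM (chow null), 39.7, 28.3 and 31.1 (chow siAATF), 57.8, 114 and 71.1 (Western null) and 52.9, 93.7 and 31.3 (Western siAATF) (0.66 ± 0.34, with overlap). Sult1c2 stood at 1.49, 3.95 and 3.40 CPM (chow null), 2.12, 3.63 and 2.51 (chow siAATF), 8.39, 7.84 and 4.49 (Western null) and 1.77, 3.40 and 0.88 (Western siAATF). Western null lay above all other libraries, and the difference from chow null, 1.26 ± 0.51, did not pass (adjusted p = 0.111). Sult5a1 stood at 8.23, 1.13 and 6.53 CPM (chow null), 6.88, 19.0 and 14.2 (chow siAATF), 3.95, 2.04 and 1.44 (Western null) and 5.09, 3.63 and 3.96 (Western siAATF) (-1.45 ± 0.56, adjusted p = 0.0997), and it passed without chow null replicate 2, its lowest library (-1.79, adjusted p = 0.0245). Sult1e1, which inactivates oestrogens, had 2, 1, 7 and 4 counts in the 4 groups. Sult2a1 to Sult2a6 and the Sult3a genes, known from female mouse liver, had no more than 2 counts each over all 12 libraries.

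Among the carboxylesterases, 2 of 13 tested members fell. Ces3b (chr8:105810365-105820561, plus strand), a triacylglycerol-cleaving enzyme of the endoplasmic reticulum, stood at 402, 443 and 362 CPM (chow null), 357, 435 and 387 (chow siAATF), 57.3, 96.4 and 110 (Western null) and 254, 260 and 383 (Western siAATF). Western null was lowest without overlap, and Western siAATF lay above it and overlapped chow siAATF. It fell by 2.18 ± 0.27 (edgeR adjusted p = 0.000131). Ces3a, the copy shown above with it and the most abundant member per length of transcript (1170 CPM per kb), had 2400 ± 457 CPM in chow null and 1860 ± 174 in Western null (SD, n = 3), a difference of -0.36 ± 0.29 that did not pass (adjusted p = 0.426). The difference between the pair was not tested.

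Ces4a (chr8:105858432-105876741, plus strand), which follows Ces3b on the same strand, was low, at 5.03, 2.26 and 4.70 CPM (chow null), 2.12, 7.02 and 5.64 (chow siAATF), 0, 0 and 0.269 (Western null) and 1.55, 0.908 and 1.76 (Western siAATF). Only 1 Western null library held any count. The groups summed to 102, 149, 3 and 15 counts, and in these sums chow null exceeded Western null 24.9-fold (95% interval from counting error, 8.27 to 123). Reads carry no molecular identifiers, and that interval covers counting error only. From the separate libraries, the edgeR estimate was -4.46 ± 0.78 (95% interval -6.1 to -2.81, adjusted p = 0.0017).

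Ces1c, a secreted plasma esterase and the second most abundant member per length of transcript (850 CPM per kb), stood at 2270, 2050 and 1710 CPM (chow null), 2290, 2010 and 1610 (chow siAATF), 933, 976 and 1220 (Western null) and 1120, 1810 and 630 (Western siAATF). Western null lay below both chow groups, and the difference of -0.94 ± 0.32 did not pass (adjusted p = 0.0601). Ces1b stood at 65.9, 57.6 and 56.6 CPM (chow null), 91.8, 54.6 and 55.4 (chow siAATF), 29.6, 34.4 and 31.8 (Western null) and 25, 39.0 and 10.1 (Western siAATF) (-0.91 ± 0.34, adjusted p = 0.088), and both Western groups lay below both chow groups. Without Western siAATF replicate 3, Ces1c (adjusted p = 0.00899), Ces1b (adjusted p = 0.0176) and Ces2a (-1.22 ± 0.25, adjusted p = 0.00269) passed. With all libraries Ces2a did not pass (-1.23 ± 0.42, edgeR adjusted p = 0.0649). Its Western siAATF libraries stood at 82, 87.1 and 305 CPM. Without Western siAATF replicate 2, Ces1c (adjusted p = 0.0227) and Ces1b (adjusted p = 0.0349) did. In contrast to these, Ces1d, a triacylglycerol hydrolase that supplies lipid to secreted lipoproteins, had 644 ± 210 CPM in chow null and 648 ± 71.3 in Western null (SD, n = 3), a difference of 0.01 ± 0.47.

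**Figure D2:**
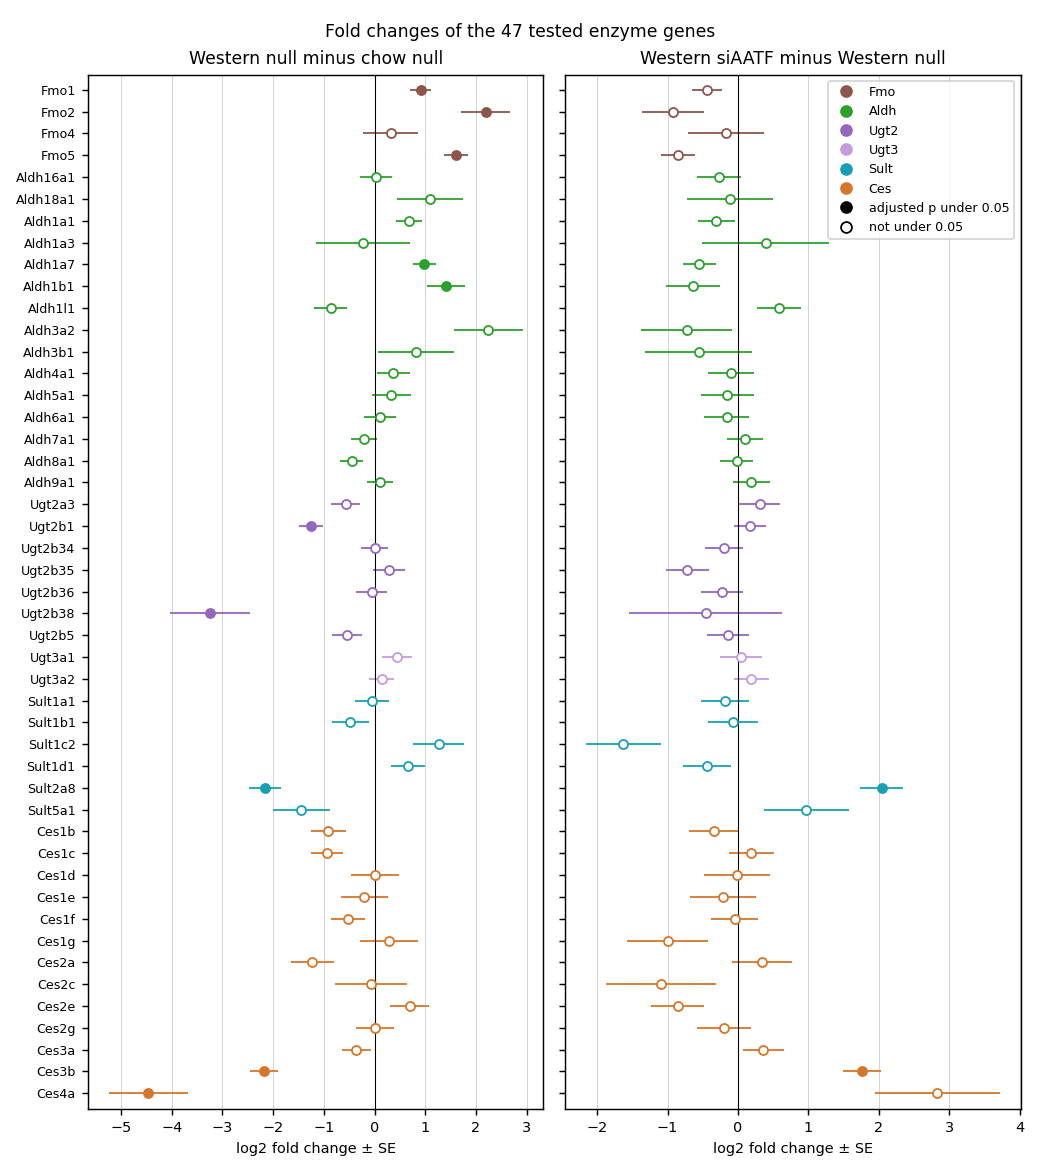
Log2 fold change with its standard error for the 47 tested enzyme genes, by family, in Western null minus chow null and in Western siAATF minus Western null. Filled points passed an adjusted p of 0.05: 5 higher and 5 lower on the left, 2 higher on the right. Both panels use Western null, so a high or low Western null library moves them in opposite directions.

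The second comparison, Western siAATF against Western null, asks what the siAATF vector changed on the Western diet. Sult2a8 and Ces3b were higher and no member was lower, where 0.31% of all genes tested were higher and 0.561% lower. The mean of Sult2a8 was 474 ± 176 CPM against 115 ± 8.77, and it rose by 2.04 ± 0.31 (edgeR quasi-likelihood, adjusted p = 0.00353). The mean of Ces3b was 299 ± 73.0 CPM against 88.0 ± 27.5, and it rose by 1.76 ± 0.27 (edgeR adjusted p = 0.00379). In both genes every Western siAATF library lay above every Western null library. The Western null libraries enter both this comparison and the first, so the 2 changes of each gene are not independent of each other. Compared with the chow siAATF libraries, which no other comparison above used, Western siAATF differed by 0.23 ± 0.30 in Sult2a8 (95% interval -0.40 to 0.85) and by -0.40 ± 0.26 in Ces3b, neither of which passed.

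The promoters of both genes are printed here because they changed in both comparisons. Each run is the 250 bases before a RefSeq start (GRCm38.p6, a build older than that of the counts). Capitals mark TATAAA or the nuclear receptor half-site AGGTCA on either strand, which 13.6% and 16.3% of all 32851 promoters of 300 bases held. These letters were searched after the values were seen. Ces3b lies at chr8:105083505-105083754, plus strand, and its TATAAA began 30 bases before the start. Sult2a8 has 2 starts, at chr7:14446588-14446837 and chr7:14438552-14438801 on the minus strand. At the outer start the match lay 223 bases upstream, and at the inner one half-sites lay 164 and 90 bases and a TATAAA 29 bases upstream.
Ces3b: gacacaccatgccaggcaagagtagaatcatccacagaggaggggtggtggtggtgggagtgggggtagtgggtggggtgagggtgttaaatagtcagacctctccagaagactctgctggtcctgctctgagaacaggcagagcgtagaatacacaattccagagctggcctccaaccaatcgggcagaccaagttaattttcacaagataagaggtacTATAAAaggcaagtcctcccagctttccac
Sult2a8 outer: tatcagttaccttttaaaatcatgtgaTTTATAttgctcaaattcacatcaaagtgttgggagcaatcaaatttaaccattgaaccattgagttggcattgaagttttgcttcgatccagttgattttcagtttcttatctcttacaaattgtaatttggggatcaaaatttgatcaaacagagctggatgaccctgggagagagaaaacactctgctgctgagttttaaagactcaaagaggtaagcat
Sult2a8 inner: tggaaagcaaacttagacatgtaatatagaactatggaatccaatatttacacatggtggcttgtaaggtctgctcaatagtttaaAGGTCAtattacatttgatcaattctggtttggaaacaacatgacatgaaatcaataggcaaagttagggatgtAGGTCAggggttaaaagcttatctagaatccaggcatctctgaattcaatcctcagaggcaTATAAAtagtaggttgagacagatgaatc

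None of the letters chosen for the regulators of these families occurred in these 3 windows on either strand. They were the STAT5 pattern TTCNNNGAA (8.3% of all promoters), the antioxidant response pattern TGACNNNGC (12.4%), the dioxin response core GCGTG (32.4%), and AGGTCA repeated after 1 base (0.0396%) or after 4 bases (0.0152%). This says only that the letters are not in these windows. Among all 63 member genes with a matched promoter, 8 held the STAT5 pattern, 2 the antioxidant pattern and 11 the dioxin core.

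Ces4a had 15 counts in Western siAATF against 3 in Western null, 7.18-fold more per library size (95% interval from counting error, 2.03 to 38.7). Its edgeR estimate of 2.83 ± 0.89 did not pass (adjusted p = 0.198). The members that had risen on the diet had lower means in Western siAATF, and none of these differences passed: -0.85 ± 0.24 for Fmo5 (adjusted p = 0.141), -0.44 ± 0.21 for Fmo1 (adjusted p = 0.469), -0.93 ± 0.44 for Fmo2 (adjusted p = 0.474), -0.55 ± 0.23 for Aldh1a7 (adjusted p = 0.385) and -0.64 ± 0.38 for Aldh1b1 (adjusted p = 0.6). Only Fmo5 passed with DESeq2 (-0.86 ± 0.22, adjusted p = 0.00696). These members were picked as high in the same Western null libraries, so lower values here were favoured in advance. For Ces4a and Ugt2b1, picked as low in them, higher values were favoured. Ugt2b1, which fell on the diet, differed by 0.17 ± 0.23 (95% interval -0.32 to 0.66). Over the 47 members the median was -0.16, and over all genes 0.06.

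Without Western siAATF replicate 3, 7 of 48 members passed in this comparison, where 3.34% of all genes did. 1 of the 7, Sult2a7, was below the filter with all libraries. It entered this fit only through Western siAATF, where it is high, so it raises the count without adding support. Sult2a8 (2.15 ± 0.30, adjusted p = 0.000217) and Ces3b (1.52 ± 0.26, adjusted p = 0.00145) were again higher. Aldh3a2 was lower (-2.40 ± 0.30, adjusted p = 8.04e-05), as were Ces1d (-1.15 ± 0.27, adjusted p = 0.0219), Ces1g (-2.11 ± 0.40, adjusted p = 0.00544) and Ces2c (-2.96 ± 0.54, adjusted p = 0.00269). With all libraries the same genes had -0.73 ± 0.65, -0.02 ± 0.47, -1 ± 0.58 and -1.10 ± 0.78, and none passed. Aldh3a2, Ces1d, Ces1g and Ces2c were among the members that set that library apart, so their calls without it add no support.

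The carboxylesterases show how far that library differed from its neighbours. Ces1d stood at 582, 724 and 639 CPM in Western null and at 287, 302 and 1330 in Western siAATF. Ces1g, a lipid-regulating liver esterase, stood at 214, 342 and 217 CPM in Western null and at 50, 70.1 and 271 in Western siAATF. Ces2c, an acylglycerol hydrolase, stood at 13.3, 18.4 and 13.0 CPM in Western null and at 2.21, 1.59 and 19.8 in Western siAATF. In all of them replicates 1 and 2 lay below every Western null library, and in Ces1d and Ces2c replicate 3 lay above every one. These genes were picked after their values were seen. Ces2c shares 42.2% of its words with other genes, mostly the pseudogene Ces2d-ps, so its level is uncertain.

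Sult2a7, a neighbour of Sult2a8 in the same cluster, had 15, 12, 4 and 67 counts in chow null, chow siAATF, Western null and Western siAATF and was below the filter. Western siAATF stood at 5.31, 9.08 and 1.32 CPM, and no library of the other groups exceeded 1.60. With no filter on counts it was higher in Western siAATF than in Western null (4.46 ± 0.93, adjusted p = 0.000148). This gene was picked after its values were seen. In the fit without Western siAATF replicate 3 it passed the filter only through the group where it is high, so its value there is not given.

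**Figure D3:**
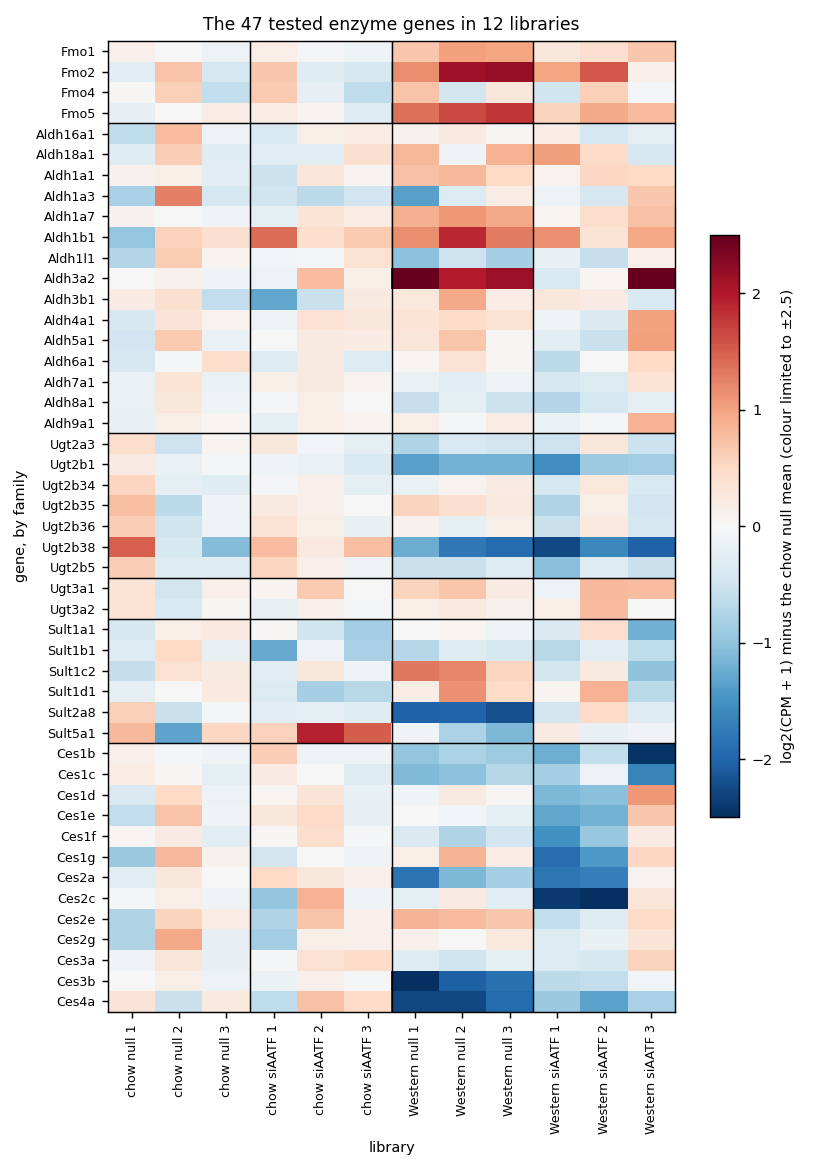
Log2(CPM + 1) of the 47 tested enzyme genes in each library, minus the mean of the 3 chow null libraries (red higher, blue lower, colours saturate at the ends of the scale). The rows of Fmo5 and Aldh3a2 are red and those of Sult2a8, Ces3b and Ces4a blue in all 3 Western null libraries. In the carboxylesterase block, Western siAATF replicates 1 and 2 are mostly blue and replicate 3 is not.

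On chow, 0 of 47 members passed between chow siAATF and chow null, as did 0 of all 11934 genes (0% higher and 0% lower) with edgeR, and no member passed with DESeq2. At an unadjusted p under 0.05 there was 1 member and 285 of all genes. The member was Sult5a1, with 13.4 ± 6.09 CPM in chow siAATF and 5.30 ± 3.71 in chow null (1.20 ± 0.47, adjusted p = 1). Aldh1b1 and Sult1b1, a thyroid hormone sulfating form, came next, with 0.80 ± 0.38 and -0.68 ± 0.35. Sult2a8 differed by -0.35 ± 0.30 (95% interval -0.97 to 0.28) and Ces3b by -0.03 ± 0.26 (-0.58 to 0.52). Rises of the size seen on the Western diet lay outside both intervals.

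Whether the vector's effect differed between the diets was tested by the interaction of diet and vector. Sult2a8 was the only member to pass, with a vector effect 2.39 ± 0.43 higher on the Western diet (edgeR adjusted p = 0.0336), where 0.101% of all genes were higher and 0.0922% lower. That call was lost without chow null replicate 1 (2.04, adjusted p = 0.0635) or 3 (2.42, adjusted p = 0.0933), without any 1 of the chow siAATF libraries (2.39, 2.39 and 2.33, adjusted p from 0.0887 to 0.128), and without any 1 of the Western null libraries (2.37, 2.39 and 2.31, adjusted p from 0.107 to 0.129). Without the libraries over 25% 18S, which keeps only replicate 3 in chow null, it was 1.92. Ces3b had 1.79 ± 0.37 (adjusted p = 0.0646) and passed with DESeq2 (1.78 ± 0.38, adjusted p = 0.00113). Next by unadjusted p came Aldh1b1 (-1.43 ± 0.54), Ces4a (2.57 ± 1.02) and Fmo5 (-0.83 ± 0.34), which did not pass. Without Western siAATF replicate 3, 4 of 48 members passed, against 2.38% of all genes: Sult2a8 (2.48 ± 0.40), Ces3b (1.52 ± 0.35), Aldh3a2 (-2.74 ± 0.38) and Ces2c (-3.19 ± 0.65). Aldh3a2 and Ces2c were among the members that set that library apart, so their calls here add no support.

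Between the diets in siAATF mice (Western siAATF against chow siAATF), 1 of 47 members passed, where 0.763% of all genes were higher and 0.721% lower. Ugt2b38 was lower by -3.82 ± 0.84 (edgeR adjusted p = 0.0322), at 172 against 6 counts, and did not pass without chow siAATF replicate 1, 2 or 3 or Western siAATF replicate 1 or 2 (-4.62 to -3.38, adjusted p from 0.0576 to 0.135), nor with limma-voom (-3.60, adjusted p = 0.165). Ugt2b1 differed by -0.86 ± 0.23 (adjusted p = 0.0764), Ces1b by -1.41 ± 0.34 (adjusted p = 0.0509) and Fmo5 by 0.78 ± 0.24 (adjusted p = 0.116). Without Western siAATF replicate 3, 11 of 48 members passed, against 5.95% of all genes. Sult2a7, which entered that fit only through Western siAATF, again raises the count without adding support. Among them were 7 carboxylesterases, all lower, of which Ces2a (-2.11 ± 0.30, edgeR adjusted p = 0.000398) and Ces2c (-3.26 ± 0.53, adjusted p = 0.00115) had the smallest adjusted p of the family. All 7 were among the members that set that library apart, so these calls add no support.

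The rest of the detoxification pathway was read from lists of related genes. Of 30 tested other hydrolases and oxidoreductases, 4 rose and 2 fell in Western null against chow null, with a median of 0.02. The carbonyl reductase genes Cbr3 (4.23 ± 0.69) and Cbr1 (1.29 ± 0.27), the quinone reductase gene Nqo1 (2.07 ± 0.42) and the retinol dehydrogenase gene Rdh9 (1.5 ± 0.28) rose, and the aldehyde oxidase gene Aox3 (-1.31 ± 0.27) and the retinol dehydrogenase gene Rdh11 (-1.70 ± 0.27) fell. Rdh9 was lower in Western siAATF than in Western null (-1.59 ± 0.28, adjusted p = 0.0102). Of 14 tested other conjugation genes, only Gnmt, a glycine methyltransferase, passed in Western null against chow null (-1.13 ± 0.33). Of 11 genes that supply the sugar and sulfate donors or methyl groups, 0 passed in any of the 5 comparisons. Of 9 tested retinoid genes, only Cyp26a1, the retinoic acid hydroxylase, fell in Western null against chow null (-2.23 ± 0.50). Of 20 regulators, Bcl6 (-1.29 ± 0.35), Hnf4a (-0.77 ± 0.24) and Stat5b (-0.67 ± 0.21) fell in that comparison, and 0 rose. In Western siAATF against chow siAATF, 1 other conjugation gene, 3 other hydrolases and oxidoreductases and 1 regulator were lower.

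The members that fell did so beside a list of male-biased liver genes, of which 14 of 18 fell and 0 rose on the diet (median -1.81). Hsd3b5, a male steroid dehydrogenase, fell by 8.40 ± 0.56 and Serpina1e fell by 7.38 ± 0.88. In Western siAATF against Western null 4 of the 18 rose and 0 fell, Hsd3b5 among them (6.54 ± 0.55). Of 8 tested female-biased genes, Cyp2a4 (6.59 ± 1.22) and Cyp17a1 (3.02 ± 0.86) rose and Ttc39c (-1.89 ± 0.32) fell on the diet. Both lists were drawn up with earlier results of these libraries known and support no direction of their own. Whether the falls of the members are tied to those of the male-biased genes was not tested.

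Markers of other liver cells also moved with the diet and, in part, with the vector on the Western diet. In Western null against chow null, 9 of 14 macrophage markers rose and 1 fell, and 6 of 10 stellate, 4 of 7 cholangiocyte and 4 of 9 endothelial markers rose and 0 fell. The summed macrophage level was 284 to 439 CPM in chow null, 211 to 432 in chow siAATF, 728 to 1190 in Western null and 474 to 1140 in Western siAATF, and the stellate level was 205 to 356, 257 to 341, 1170 to 1640 and 299 to 819 CPM. Lrat and Cd5l were at 0 in all libraries. Of 9 hepatocyte markers, 4 fell and 0 rose, and their sum was 82000 to 110000 CPM in chow null and 56300 to 64200 in Western null. In Western siAATF against Western null, where Sult2a8 and Ces3b were higher, 3 of 14 macrophage markers were lower and 0 higher (median -0.39). The 3 were Gpnmb (-6.04 ± 0.50), Trem2 (-2.84 ± 0.50) and Cd63 (-2.05 ± 0.29). The means of Marco (4.41 to 95.6 CPM) and Timd4 (1.77 to 8.33 CPM) went the other way, and neither passed. Of 7 cholangiocyte markers only Spp1 was lower (-2.64 ± 0.45), and of 9 hepatocyte markers only Fga was higher (1.44 ± 0.32). The mean of Alb was 31500 CPM in Western null and 27400 in Western siAATF. No stellate, endothelial or lymphocyte and granulocyte marker passed there. The summed lymphocyte and granulocyte level was 33.1 to 42.3 CPM in Western null and 117, 181 and 11 CPM in Western siAATF replicates 1, 2 and 3. In Western siAATF against chow siAATF, 2 of 3 tested markers of that list and 3 of 14 macrophage markers were higher, and 0 were lower. The summed cholangiocyte level was 109 to 239 CPM in Western null and 34.7 to 53.1 in Western siAATF, and the hepatocyte level in Western siAATF was 50500 to 78800 CPM. The part of these shifts in the enzyme results was not tested. In bulk liver, fewer cells of a type and less RNA per cell cannot be told apart.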

How the data were processed

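The authors deposited whole-number read counts per gene. The submitters' processing notes name STAR 2.7.11, featureCounts 2.0.1, DESeq2 1.42.0, R 4.3.2 and the build GRCm39. The sources used here give neither a strand setting nor a rule for reads that fall on more than 1 gene. Each gene's length in the table equals its whole span, so introns may have been counted; Ugt2a2, inside Ugt2a1, is listed at 0. Of the 47 tested members, 12 overlap a neighbour in part. RNA came from a DNA/RNA column kit and libraries from a SMART-Seq kit, per the labels.

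From the counts, edgeR 4.0.16 (R 4.3.3; TMM, filterByExpr by group, robust quasi-likelihood fit with 1 mean for each group over all 12 libraries, 8 residual degrees of freedom) gave fold changes for 11934 genes. limma 3.58.1 (voom) and DESeq2 1.42.0 served as alternatives, as did other filters, scalings and leaving out libraries. No 2 replicates of a group agreed within sampling noise (lowest chi-square per df, 4.92). Same-numbered libraries did not deviate together (correlations -0.38 to 0.26, 1 of 18 over 0.1), and the main fit treated libraries as unpaired. With groups of 3, these correlations cannot show whether the numbers pair the libraries.

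The members and all gene lists were chosen with earlier results of these data known. Members named are those past the threshold in any comparison, the 2 most abundant per length in each family, the 5 with the smallest interaction p and, in a comparison without calls, the 3 with the smallest p; values in every library are given for up to 4 per family by smallest adjusted p, and list genes for up to 4 per list. Names outside this rule are given for the Western siAATF replicate 3 pattern, for near copies, for genes below the filter and to complete family counts. 1 member below the filter is not reported here.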

Additional observations from a re-analysis of the deposited data

Results flagged for a closer look

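Sult2a8, the bile acid sulfotransferase gene, differed between the diets in its response to the siAATF vector. The vector effect on the Western diet exceeded that on chow by 2.39 on the log2 scale, as tested by an interaction term in the fit of all libraries (edgeR quasi-likelihood, adjusted p = 0.0336). All 3 Western siAATF libraries lay above all 3 Western null libraries, and the chow groups overlapped. Over the 20 alternatives the estimate ran from 1.92 to 2.63 and the adjusted p from 7.68e-06 to 0.129, and 10 of them kept the call.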

How the results depend on the processing

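Of the 14 values that passed, 7 passed in every alternative: the diet changes of Fmo5, Ugt2b1, Sult2a8, Ces3b and Ces4a, and the vector changes of Sult2a8 and Ces3b on the Western diet. None reversed. For Western null against chow null (10 members), the count was 16 with the 2 groups alone, 17 at an adjusted p under 0.1, and 6 to 15 when 1 library was left out. For Western siAATF against Western null (2), it was 4 with no low-count filter, 1 among members sharing under 10% of their 50-base words (a choice made after seeing the data), and 2 to 7 with 1 library out. For chow siAATF against chow null it was 0 throughout. For Western siAATF against chow siAATF (1), it was 5 with DESeq2, 7 with no filter, 3 at an adjusted p under 0.1, 0 among members with few shared words, 2 each with RLE scaling, limma-voom, the stricter filter, the 18S gene left out or libraries over 25% 18S left out, and 0 to 11 with 1 library out. For the interaction (1), it was 2 with DESeq2, with limma-voom or at an adjusted p under 0.1, 4 with no filter, and 0 to 4 with 1 library out. With the replicate number as a block, the counts were 11, 2, 0, 1 and 0 in that order. The Sult2a8 interaction did not pass in that fit (2.38, edgeR adjusted p = 0.0683). Whether the numbers pair the libraries is not known. The highest counts with 1 library out, 7 and 11, include Sult2a7, which entered those fits only through Western siAATF. They also include members whose own values singled out the library left out, Western siAATF replicate 3. The causes of these shifts were not tested. Depth limits the genes of a few CPM: in Western null replicate 1, 3 counts equal 1.48 CPM.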
